A study of Mus musculus with 24 samples.

Results

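The ATP-binding cassette (ABC) genes were followed as a family across 2 kidney cell isolations from male and female mice, with and without ischemic injury. A gene was a member if its symbol began with Abca to Abcg followed by a digit, was not marked as a pseudogene, and had at least 1 transcript annotated as protein coding. This gave 50 of the 53392 genes in the quantification files, of which 16 were ABCA, 10 ABCB, 10 ABCC, 4 ABCD, 1 ABCE, 3 ABCF and 6 ABCG genes. The rule used symbols and transcript types only, not measured values. Earlier results of these data were known when the members were proposed.

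Most ABC proteins use ATP to move a substrate across a membrane. In the proximal tubule, apical efflux pumps of the ABCB, ABCC and ABCG families pass drugs, urate and conjugated metabolites into the urine, and other members move sterols and phospholipids or work inside peroxisomes, lysosomes and mitochondria. ABCE1 and the ABCF proteins carry the ATPase domains without membrane segments and act in translation.

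All mice were of the FVB strain, and each group was either uninjured (sham) or had ischemic acute kidney injury (IRI). Proximal tubules (PTs) were picked by microdissection after enzymatic digestion of the kidney, and endothelial cells were taken with CD31 microbeads. Groups were sham females (3 tubule and 2 endothelial samples), sham males (3 and 3), injured females (3 and 3) and injured males (3 and 3), giving 23 samples after the tubule library of sham male replicate 3 and its repeat library, 3B, were added together. The labels name no transgene and give no age or time after injury, and 2 endothelial samples stood for the sham females.

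Each sample held between 32592517 and 54906972 estimated reads, and the 50 genes together took 0.233 ± 0.0574% (SD, n = 3, injured male tubules) to 0.335 ± 0.0279% (SD, n = 2, sham female CD31 isolates) of them. Summed levels of 8 proximal tubule markers were 6959 to 19120 CPM (estimated reads scaled to the library's size) in tubules and still 4948 to 18337 CPM in the CD31 isolates. Summed levels of 10 endothelial markers were 141 to 384 CPM in tubules and 425 to 1879 CPM in the CD31 isolates, and 5 thick ascending limb and distal markers reached 7519 to 15735 CPM in the CD31 isolates against 1366 to 7254 CPM in tubules. The CD31 isolates thus carried abundant tubule transcripts beside endothelial ones, and no marker in these lists was at 0 in a whole group. The injury genes Havcr1 and Lcn2 summed to 522 to 796 CPM in injured male tubules, 10.6 to 30.9 CPM in injured female tubules and at most 10.8 CPM in sham tubules. In bulk samples, fewer cells of a type and less RNA per cell cannot be told apart. Several libraries stood apart from their groups in some markers. Injured male tubule replicate 1 held 32.9 CPM of Havcr1, where replicates 2 and 3 held 288 and 324 CPM. Podocyte markers summed to 0.671 CPM in sham male tubule replicate 1 and 1.06 CPM in injured female tubule replicate 3. The other replicates of these groups held 72.95 CPM or more. The 3 libraries below are followed through the comparisons. Injured male tubule replicate 3 held 2096 CPM of the thick ascending limb and distal markers where replicates 1 and 2 held 5206 and 5199.5 CPM, and many members lay nearer the sham level in it. Injured male CD31 isolate 2 held 4.58 CPM of Havcr1 where the other injured male isolates held 282 and 229 CPM. Sham male CD31 isolate 3 held 1672 CPM of the endothelial markers where the other sham male isolates held 425 and 449 CPM. Counts of called members without these 3 libraries are given beside the comparisons they moved most. Values are added for members called for injury in male tubules and between injured males and females. Injured male tubule replicate 3 was set apart partly by the members' own values. Larger differences in fits without it are therefore no separate support.

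Levels. In tubules 5 members had a mean of 100 CPM or more, 20 lay between 10 and 100 CPM, 6 between 1 and 10 CPM and 19 below 1 CPM. CD31 isolates had almost the same spread, with 5, 21, 6 and 18 members in these ranges. No read was assigned to Abca16 and Abcb5 in any tubule sample, nor to Abca15, Abca16, Abcb5 and Abcc12 in any CD31 isolate. A filter on low counts kept 36 members in tubules, 37 in CD31 isolates and 39 in the fit of both, and those left out had mean levels of at most 0.140 CPM in tubules and 0.0874 CPM in CD31 isolates.

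Compared per transcript length, in TPM (a transcript's share of all transcripts after its length is accounted for) of each gene's most-read transcript, the urate and drug exporter Abcg2 ranked first in tubules at 82.7 TPM. The phospholipid transporter Abca3, best known from lung surfactant, followed at 52.4 TPM, and Abcd3, which brings fatty acids into peroxisomes, at 40.5 TPM. Below them came Abcf1, a translation factor, at 16.0 TPM, the apical conjugate pump Abcc2 at 13.3 TPM and the ribosome recycling factor Abce1 at 12.1 TPM. Mitochondrial members were of middle rank, with Abcb6 at 7.74 and Abcb8 at 7.09 TPM. Sterol exporters were lower, with Abca1 at 1.34 and Abcg1 at 0.374 TPM of the most-read transcript.

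The order at the top was the same in the CD31 isolates for Abcg2 (81.5 TPM), Abca3 (47.0 TPM) and Abcd3 (41.9 TPM). Gene-level TPM was avoided for this order because short transcripts with few reads dominated it for some members. For Abcf3, a cytosolic ABCF protein, a transcript of 219 bases held 4.33% of the tubule reads and 69.1% of the gene's TPM.

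**Figure D1:**
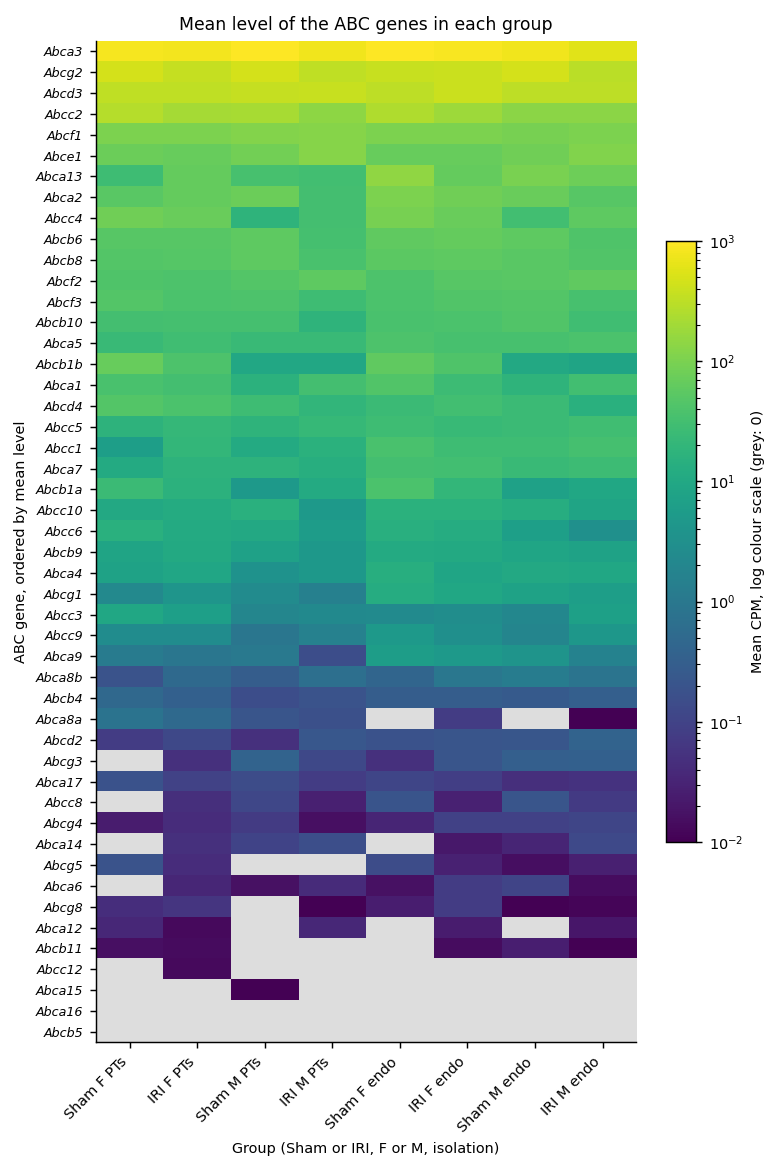
Mean level of 48 ABC genes (rows, ordered by their mean over groups) in the 8 groups (columns), as CPM on a log colour scale, with grey for a group without a read. Abca3, Abcg2, Abcd3 and Abcc2 form the bright top rows in every group, and Abcb1b and Abcc4 are darker in sham males than in sham females in both isolations.

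Sham tubules, males against females. The drug efflux pumps Abcb1b and Abcb1a, the organic anion and cyclic nucleotide pump Abcc4 and the cholesterol exporter Abca1 were lower in sham males than in sham females. These 4 were the members called, all in one direction, among 36 tested (11.1%), where 5.80% of all 18369 genes tested were called (3.24% higher and 2.56% lower) at an adjusted p below 0.05 by edgeR's quasi-likelihood test. The members' median log2 difference was 0.012 and that of all genes 0.013. With size factors in place of TMM, 1 member was called higher and 3 lower, against 5.70% of all genes, with Abca1 no longer among them (adjusted p = 0.053).

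Abcb1b and Abcb1a are the mouse copies of P-glycoprotein, which pumps a wide range of drugs out of cells. Abcb1b stood at 61.5, 74.1 and 73.8 CPM in the 3 sham females and 7.68, 9.95 and 11.6 CPM in the 3 sham males. Every male sample was far below every female one, a 7.17-fold difference (log2 fold change -2.84, SE 0.31, adjusted p = 2.71e-04). For Abcb1a the female samples held 29.6, 28.2 and 18.4 CPM and the male samples 2.57, 3.29 and 8.95 CPM. Again the groups did not overlap, and males were 5.15-fold lower (log2 fold change -2.36, SE 0.45, adjusted p = 0.0091). The genes lie next to each other on chromosome 5, with Abcb1a at chr5:8660077-8748575 and Abcb1b at chr5:8798147-8866315 (GRCm38), 49571 bases apart on the same strand, and their close sequence means that reads can be split between them. Their sum does not depend on that split and was 95.2 ± 6.18 CPM in sham females and 14.7 ± 5.29 CPM in sham males (SD, n = 3 each).

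The other called members were Abcc4 and Abca1. Abcc4 was at 93.0, 84.2 and 65.2 CPM in sham females and 18.7, 13.0 and 21.6 CPM in sham males, so the lowest female sample was above all male samples. Males were 4.54-fold lower (log2 fold change -2.18, SE 0.30, adjusted p = 0.0012). Abca1, which loads cholesterol onto apolipoprotein A-I, held 31.7, 39.3 and 36.8 CPM in sham females and 12.9, 15.2 and 21.5 CPM in sham males, without overlap (log2 fold change -1.12, SE 0.30, adjusted p = 0.049). It kept an adjusted p below 0.05 in 2 of 7 fits that left out a library. Without sham male replicate 2 the members called were Abcb1b and Abcc4 alone, 2 in all, against 2.84% of all genes.

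The value of Abcb1a depended on transcript length. When each gene's counts were offset by its effective length, its male to female difference became 0.24 on the log2 scale (adjusted p = 0.95), opposite in sign. The authors' deposited table gives Abcb1a in this comparison a log2 fold change of 0.048 (adjusted p = 0.92). Whether that table used a length correction, or fold changes made smaller by the method, is not given in the sources used here. In sham male replicate 1, Abcb1a-204, a transcript of 129 bases, was assigned 3.88 reads and the full-length Abcb1a-201 (4997 bases) 96.8 reads, yet the short transcript took 97.3% of the gene's TPM there. The gene's TPM-weighted effective length was 126 bases in that sample and 4529 bases in sham male replicate 2. The reads themselves, summed over transcripts, were lower in all 3 sham males. For Abcb1b and Abcc4 the difference was called under all 8 other settings and all 7 fits without a library. Abcb1a-204 also took 76.0% to 85.4% of Abcb1a's TPM in the injured female tubules and 93.0% in injured male tubule replicate 3.

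The stretch before the transcription start is shown for Abcb1b, Abcc4 and Abca1, the 3 called members whose RefSeq start lies at the GENCODE gene start, because these genes differed in the same direction. The sequences are from RefSeq (GRCm38.p6), 250 bases, 5′ to 3′ on the gene's strand and ending at the base before the start: chr5:8797897-8798146 (plus strand), chr14:118706220-118706469 (minus strand) and chr4:53159896-53160145 (minus strand).
Abcb1b: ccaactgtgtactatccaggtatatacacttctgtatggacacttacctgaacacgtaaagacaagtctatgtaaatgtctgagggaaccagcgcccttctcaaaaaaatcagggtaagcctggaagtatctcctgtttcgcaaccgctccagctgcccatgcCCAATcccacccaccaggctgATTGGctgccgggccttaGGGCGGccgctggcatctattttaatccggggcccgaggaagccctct
Abcc4: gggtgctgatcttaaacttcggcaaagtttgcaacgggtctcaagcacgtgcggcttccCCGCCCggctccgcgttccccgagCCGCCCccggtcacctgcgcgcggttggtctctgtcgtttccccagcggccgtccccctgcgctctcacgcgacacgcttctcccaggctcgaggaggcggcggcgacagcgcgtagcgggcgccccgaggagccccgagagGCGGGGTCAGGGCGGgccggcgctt
Abca1: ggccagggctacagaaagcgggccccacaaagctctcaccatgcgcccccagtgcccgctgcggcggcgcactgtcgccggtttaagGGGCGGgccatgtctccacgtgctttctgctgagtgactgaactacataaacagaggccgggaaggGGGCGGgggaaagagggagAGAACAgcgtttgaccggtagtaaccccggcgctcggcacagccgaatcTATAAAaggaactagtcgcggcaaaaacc
Capitals mark matches, on either strand, to the GC box GGGCGG, the CCAAT box CCAAT, the NRF2 element TGACNNNGC, the hexamer AGAACA found in androgen and glucocorticoid receptor elements, and the TATA box TATAAA. In Abcb1b the capitals are 1 GC box and a CCAAT box on each strand, and in Abcc4 they are 3 GC boxes, the last of which directly follows an NRF2 match on the other strand. Abca1 holds 2 GC boxes, the AGAACA hexamer 78 bases before the start and a TATA box 29 bases before it. Of 32851 such windows in the RefSeq table, 32.7% hold the GC box, 33.8% CCAAT, 10.2% the NRF2 letters, 16.1% AGAACA and 12.4% TATAAA. Among the 25 members with a window at their GENCODE start these were 11, 9, 1, 6 and 3. Such matches describe letters only.

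**Figure D2:**
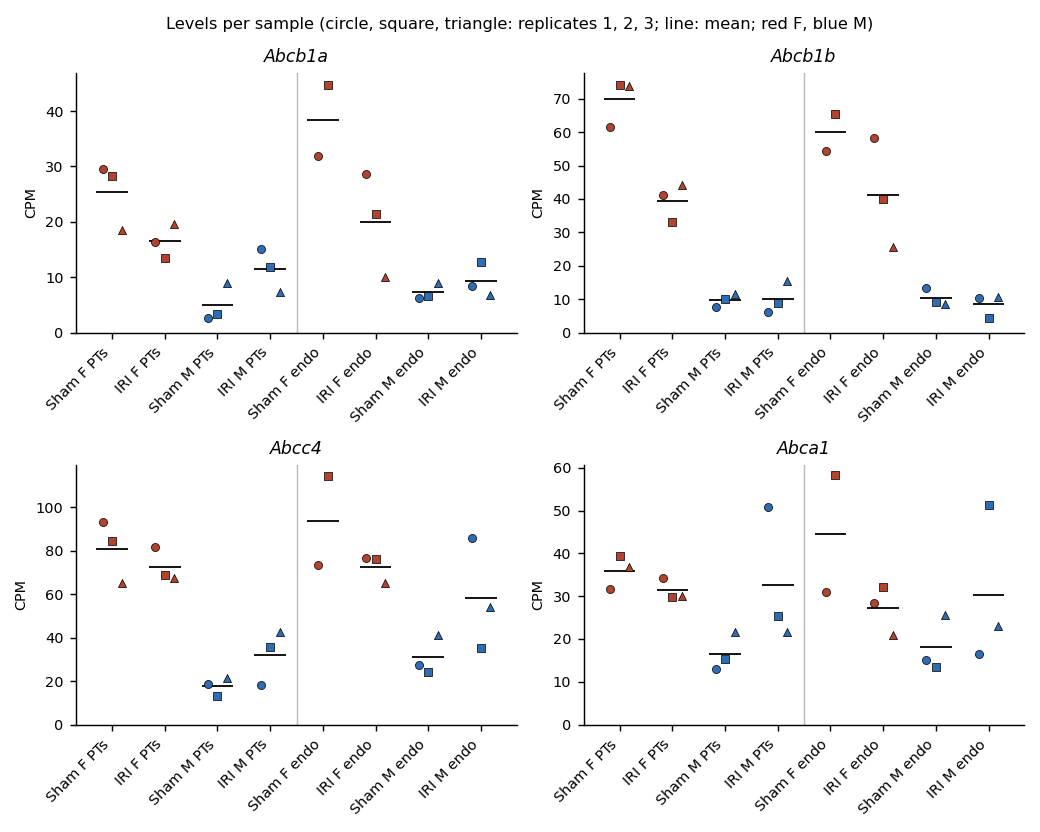
Level in CPM (y axis, from 0) of Abcb1a, Abcb1b, Abcc4 and Abca1 in every sample of the 8 groups (x axis), tubules left and CD31 isolates right of the grey line, females red and males blue, with a black line at each mean. Abcb1b in sham tubules is at 61.5 CPM or more in females and at 11.6 CPM or less in males, and the gap recurs in the CD31 isolates.

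Among the other efflux pumps no difference passed the test in sham tubules. Abcc2 had 274 ± 26.1 CPM in females and 225 ± 54.7 CPM in males (SD, n = 3; adjusted p = 0.59), and Abcg2 had 469 ± 18.9 and 468 ± 30.8 CPM (adjusted p = 1.00). The conjugate pump Abcc1 was at 6.12, 7.13 and 5.58 CPM in females and 16.3, 10.4 and 7.25 CPM in males, with all males above all females, and did not pass (adjusted p = 0.11). The lipid transporters Abca2, Abca3 and Abca7 also lay higher in every sham male than in every sham female, with log2 differences of 0.54 ± 0.24, 0.46 ± 0.14 and 0.60 ± 0.16 (± SE) and adjusted p of 0.25, 0.096 and 0.054. In all, 7 members lay above and 8 below without overlap, 15 of 36, where 29.8% of all genes tested did not overlap. DESeq2 called 3 members higher and 8 lower here, against 11.2% of all genes. When only the sham tubules were fitted, edgeR called 3 higher, namely Abca2, Abca3 and Abca7, and the same 4 lower, against 10.2% of all genes. Injured male replicate 3 is in neither group compared here but enters the shared spread, scaling and low-count filter. Without it 6 were called higher and 5 lower, against 13.6% of all genes. The 6 include the barely detected Abcg3, which had no read in the sham females. It passed the low-count filter only in this smaller fit, so its call is set aside.

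Markers of other cells moved with this comparison too. The 5 collecting duct markers summed to 169, 157 and 65.6 CPM in sham females and 1064, 502 and 141 CPM in sham males. In the sham males Abcc1 had the same order over the 3 samples as this sum. The proximal tubule sum was 14721 to 19120 CPM in sham females and 15234 to 18533 CPM in sham males, which overlapped, while 1 of its genes, the lactate transporter Slc5a12, had means of 1110 and 317 CPM. The part of these shifts in the members' differences was not tested. In the authors' deposited table for sham tubules by sex, 2 members are higher and 4 lower at an adjusted p below 0.05. Of the 4 called here Abcb1b and Abcc4 pass in the authors' deposited table, and Abcb1a and Abca1 (adjusted p = 0.063) do not.

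Abcg3, a rodent relative of Abcg2, was too low to be tested in the fit of all tubule samples. It had 21, 6 and 19 estimated reads in the 3 sham male tubule samples and 0 reads in each of the 3 sham females.

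Injured tubules, males against females. Of 36 members, 9 were lower and 2 higher in injured males than in injured females (30.6%), where 23.3% of all genes tested were called. The members' median log2 difference was -0.61 and that of all genes -0.061. Abcb1b kept the largest called efflux difference, with 41.3, 33.0 and 44.3 CPM in injured females and 6.09, 8.85 and 15.5 CPM in injured males. No male sample reached the lowest female, and males were 3.89-fold lower (log2 fold change -1.96, SE 0.30, adjusted p = 0.0017). Abcc4 had 81.8, 68.9 and 67.2 CPM in injured females and 18.1, 35.6 and 42.5 CPM in injured males, also without overlap (log2 fold change -1.18, SE 0.29, adjusted p = 0.015). Abcb1a was at 16.3, 13.5 and 19.6 CPM in injured females and 15.2, 11.9 and 7.39 CPM in injured males, which overlapped, with an adjusted p of 0.40.

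Abcc6, a liver and kidney transporter whose loss causes ectopic calcification, held 11.4, 12.1 and 10.8 CPM in injured females and 6.56, 5.12 and 5.60 CPM in injured males, without overlap (log2 fold change -0.99, SE 0.20, adjusted p = 0.0066). Both lysosomal members were lower in injured males: Abcd4, which passes cobalamin out of lysosomes, with 41.2, 40.2 and 32.3 against 20.9, 14.9 and 22.0 CPM (log2 fold change -0.97, SE 0.22, adjusted p = 0.011), and the peptide transporter Abcb9 with 11.3, 9.98 and 11.3 against 3.88, 3.45 and 6.62 CPM (log2 fold change -1.22, SE 0.27, adjusted p = 0.01). The peroxisomal Abcd3 had 329.9 ± 44.8 CPM in injured females and 384 ± 39.3 CPM in injured males (SD, n = 3; adjusted p = 0.24).

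Also lower were the lipid transporter Abca2 (log2 fold change -1.01, SE 0.24, adjusted p = 0.014) and the mitochondrial Abcb6 (log2 fold change -0.62, SE 0.19, adjusted p = 0.034) and Abcb10 (log2 fold change -0.95, SE 0.29, adjusted p = 0.035), which serve porphyrin and heme handling. The 2 higher members belong to the translation group. Abce1 held 64.4, 65.3 and 77.9 CPM in injured females and 136, 142 and 96.2 CPM in injured males, with every male above every female (log2 fold change 0.85, SE 0.16, adjusted p = 0.0045). Abcf2 followed at 39.5, 36.1 and 45.3 against 63.1, 61.9 and 50.4 CPM (log2 fold change 0.54, SE 0.14, adjusted p = 0.018). Without overlap, 3 members lay above and 17 below, against 39.5% of all genes tested (17.6% above and 21.9% below).

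Leaving out injured male replicate 3 raised the count to 3 higher and 17 lower, and the share of all genes called to 44.1%. As that library was set apart partly by the members' own values, the rise adds no separate support. Leaving out injured female replicate 1 or injured male replicate 1 gave 6 members each, against 9.89% and 9.99% of all genes, and injured male replicate 2 gave 7, against 9.82%. Over the 6 fits that left out a library, Abcb1b, Abcc6, Abcb9 and Abce1 kept their call in 6 and Abcc4 and Abcd4 in 5. Abca2 kept its call in 4 and Abcf2 in 2. Abcb6 and Abcb10 kept theirs in 1, the fit without injured male replicate 3. The log2 differences without injured male replicate 3 were -2.40 ± 0.22 for Abcb1b, -1.44 ± 0.29 for Abcc4, -0.97 ± 0.21 for Abcc6, -1.08 ± 0.23 for Abcd4 and -1.56 ± 0.23 for Abcb9 (± SE). They were -1.40 ± 0.15 for Abca2, -0.92 ± 0.10 for Abcb6, -1.49 ± 0.14 for Abcb10, 1.01 ± 0.11 for Abce1 and 0.63 ± 0.12 for Abcf2. With only the injured tubules fitted, the count was 1 higher (Abce1) and 5 lower (Abcb1b, Abcc6, Abcd4, Abcc3 and Abcg1), against 9.97% of all genes. The authors' deposited table has 2 members higher and 10 lower in this comparison, 9 of them among the 11 called here. Abcb6 (adjusted p = 0.10) and Abcb9 (adjusted p = 0.11) do not pass in the authors' deposited table. Cell type markers moved with this comparison too. The proximal tubule sum was 6959 to 9614 CPM in injured males and 12281 to 14855 CPM in injured females. The thick ascending limb and distal sum was 2096 to 5206 against 5420 to 7254 CPM, and the collecting duct sum 235 to 342 against 564 to 797 CPM. The 3 neutrophil genes summed to 3.29 to 25.5 against 0.518 to 2.50 CPM. Endothelial sums overlapped, at 210 to 332 against 145 to 384 CPM. The part of these shifts in the differences was not tested.

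Injury in male tubules. Injury lowered 9 members and raised 2 in male tubules, 11 of 36 (30.6%), where 19.0% of all genes tested were called, 10.6% higher and 8.43% lower. The median log2 change was -0.25 over the members and -0.026 over all genes. Without overlap, 4 members lay above and 14 below, where 30.8% of all genes did (14.1% above and 16.7% below). Of the 9 pumps listed as xenobiotic efflux genes 2 fell, and among the 6 sterol and phospholipid transporters tested 1 rose and 2 fell.

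Injury lowered Abcb6, which moves porphyrins, from 55.7, 60.7 and 55.2 CPM in sham males to 26.2, 28.0 and 45.7 CPM in injured males (log2 fold change -0.78, SE 0.19, adjusted p = 0.018). Abcb10, needed for heme synthesis, went from 31.0, 33.0 and 37.1 to 10.6, 13.6 and 28.3 CPM (log2 fold change -0.94, SE 0.29, adjusted p = 0.042). In both genes the injured samples lay below the sham samples, and replicate 3 was the highest of the injured samples. Abcb8, linked to a mitochondrial potassium channel, had the same order, 54.3, 57.1 and 62.8 against 29.4, 26.7 and 53.5 CPM, with an adjusted p of 0.055.

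Among lipid transporters Abca2 was at 76.5, 65.8 and 84.8 CPM in sham males and 28.4, 20.9 and 47.4 CPM in injured males, a 2.35-fold fall without overlap (log2 fold change -1.23, SE 0.24, adjusted p = 0.0084). The highly expressed Abca3 fell from 1112, 1174 and 1287 to 851, 639 and 806 CPM (log2 fold change -0.64, SE 0.14, adjusted p = 0.015). Abca1 moved the other way, from 12.9, 15.2 and 21.5 to 50.8, 25.3 and 21.7 CPM (log2 fold change 0.98, SE 0.29, adjusted p = 0.041). Its groups only just failed to overlap, at 21.5 against 21.7 CPM, and injured replicate 1 was far above the others.

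The peroxisomal Abcd3 was at 359 ± 15.6 and 384 ± 39.3 CPM (SD, n = 3; log2 change 0.10 ± 0.13, SE). Abcd2, also peroxisomal, stayed at or below 0.309 CPM.

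Of the efflux pumps, Abcg2 fell modestly, from 447, 504 and 454 to 284, 297 and 423 CPM (log2 fold change -0.49, SE 0.15, adjusted p = 0.048), and Abcc6 from 9.08, 9.81 and 11.98 to 6.56, 5.12 and 5.60 CPM (log2 fold change -0.84, SE 0.20, adjusted p = 0.018). Abcc10, a lipophilic anion pump that was not in the list of 9, fell most among the called members, from 14.8, 13.5 and 15.9 to 1.93, 2.95 and 10.3 CPM (log2 fold change -1.53, SE 0.47, adjusted p = 0.043). In Abcc10 injured replicates 1 and 2 were at 2.95 CPM or less while replicate 3 was at 10.3 CPM. Without replicate 3 the log2 fold change was -2.59 ± 0.22 (± SE). The call of Abcc10 was kept in 1 of 6 fits that left out a library, the one without replicate 3. The apical Abcc2 had 203, 185 and 288 CPM in sham and 117, 106 and 194 CPM in injured males, overlapping at replicate 3, and did not pass (log2 fold change -0.69, SE 0.23, adjusted p = 0.057). The female-biased pumps did not pass either: the log2 difference was 0.062 ± 0.29 for Abcb1b, 1.22 ± 0.43 for Abcb1a and 0.85 ± 0.29 for Abcc4 (± SE), with adjusted p of 0.90, 0.069 and 0.058. In the translation group Abce1 rose from 86.2, 91.6 and 79.8 to 136, 142 and 96.2 CPM (log2 fold change 0.54, SE 0.16, adjusted p = 0.036), while Abcf1 (0.065 ± 0.13), Abcf2 (0.32 ± 0.14) and Abcf3 (-0.57 ± 0.23) did not pass.

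**Figure D3:**
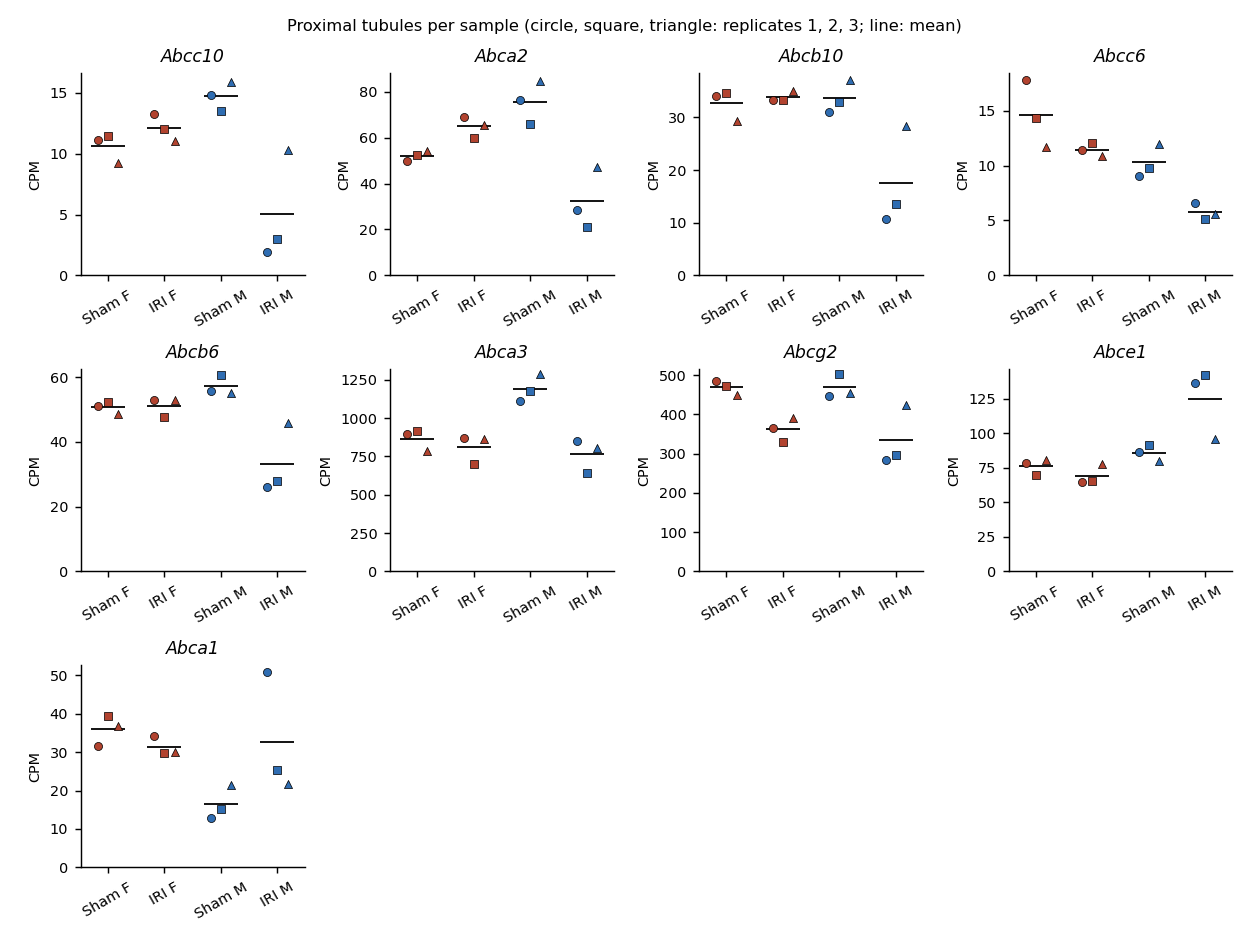
Level in CPM (y axes, from 0) of 9 members called for injury in male tubules, in every tubule sample of the 4 groups, females red, males blue, black line at the mean. In 7 panels the injured male mean is the lowest, with replicate 3 (triangle) between the other injured males and the sham males in Abcc10, Abca2, Abcb10, Abcb6 and Abcg2.

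The count rested on single libraries. Without injured male replicate 3, 4 members rose and 15 fell, the 11 called members among them, with 42.5% of all genes called. That library was set apart partly by the members' own values, so larger changes without it add no separate support. The log2 changes of members already described became -1.62 ± 0.15 for Abca2, -0.68 ± 0.15 for Abca3, -1.08 ± 0.10 for Abcb6, -1.48 ± 0.14 for Abcb10 and -0.69 ± 0.10 for Abcg2 (± SE). For Abcc6 the value was -0.82 ± 0.21, for Abca1 1.20 ± 0.27 and for Abce1 0.70 ± 0.11. The added ones were Abcb1a (1.46 ± 0.43, adjusted p = 0.018) and Abcf2 (0.41 ± 0.12) higher, and Abcb8 (-1.05 ± 0.11), Abcf3 (-0.97 ± 0.10), Abcc2 (-1.01 ± 0.18), Abcb9 (-0.95 ± 0.22), Abcd4 (-0.67 ± 0.23) and Abca9 (-3.97 ± 1.01) lower (log2 ± SE). Without injured replicate 1 or 2 the counts were 1 higher and 3 lower, and 0 higher and 1 lower, while the share of all genes called was 6.07% and 4.97%. Leaving out sham male replicate 1, 2 or 3 gave 4, 2 and 5 called members, against 8.61%, 6.64% and 8.20% of all genes. Over the 6 fits that left out a library, Abca2 kept its call in 6, Abca3 in 5, Abcb6 and Abcc6 in 3 and Abca1 in 2. Abcg2, Abcb10, Abcc10 and Abce1 kept theirs in 1, the fit without injured replicate 3. When only the sham and injured male tubules were fitted, edgeR called no member, and 0.913% of all genes were.

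Proximal tubule marker sums were 15234 to 18533 CPM in sham and 6959 to 9614 CPM in injured male tubules, those of thick ascending limb and distal markers 1366 to 3309.8 and 2096 to 5206 CPM, and those of 3 neutrophil genes 0.322 to 1.13 and 3.29 to 25.5 CPM. The part of these shifts in the members' changes was not tested. For injury in male tubules the authors' deposited table has 43 members, of which 2 are higher and 10 lower at an adjusted p below 0.05. These include the 11 called here, and the remaining one is Abca9, an ABCA member with a level near 1 CPM (adjusted p = 0.053 in the test here).

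Injury in female tubules. No member passed in female tubules by edgeR, where 0.0109% of all genes (2 genes) were called. At an unadjusted p below 0.05 there were 5 of 36 members, 3 higher and 2 lower, against 11.1% of all genes. DESeq2 called 2 higher (Abcc1 and Abca7) and none lower, against 3.80% of all genes. The median log2 change was -0.019 over the members and 0.0035 over all genes.

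The conjugate and glutathione pump Abcc1 had 6.12, 7.13 and 5.58 CPM in sham females and 21.6, 21.8 and 17.1 CPM in injured females. Each injured sample was above all sham samples (log2 fold change 1.68, SE 0.28, adjusted p = 0.059). Abca13, a very large ABCA protein, was at 27.1, 28.8 and 26.3 CPM in sham and 82.4, 57.6 and 54.3 CPM in injured females, again without overlap (log2 fold change 1.24, SE 0.44, adjusted p = 0.29). Abca7, which moves phospholipids, was at 11.96, 11.1 and 11.4 CPM in sham and 17.2, 17.3 and 15.7 CPM in injured females (log2 fold change 0.54, SE 0.16, adjusted p = 0.20). The 2 members with lower values were Abcb1b, at 61.5, 74.1 and 73.8 CPM in sham and 41.3, 33.0 and 44.3 CPM in injured females (log2 fold change -0.82, SE 0.29, adjusted p = 0.28), and Abcg2, at 486, 472 and 448 CPM in sham and 366, 330.1 and 391 CPM in injured females (log2 fold change -0.37, SE 0.15, adjusted p = 0.39).

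These 5 were all called when only the female tubules were fitted, at adjusted p of 0.0012, 0.0041, 0.026, 0.009 and 0.038, with 6.90% of all genes called. Without injured male replicate 3, which enters only through the shared spread, scaling and low-count filter, Abcc1, Abca13 and Abcb1b were called, against 2.59% of all genes. In this comparison 7 members lay above and 5 below without overlap, 12 of 36, where 27.1% of all genes did. The thick ascending limb and distal marker sum was 1582 to 1961 CPM in sham and 5420 to 7254 CPM in injured female tubules, and the collecting duct sum 65.6 to 169 and 564 to 797 CPM. Both sums were higher in every injured than in every sham female. The part of these shifts in the members' values was not tested.

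**Figure D4:**
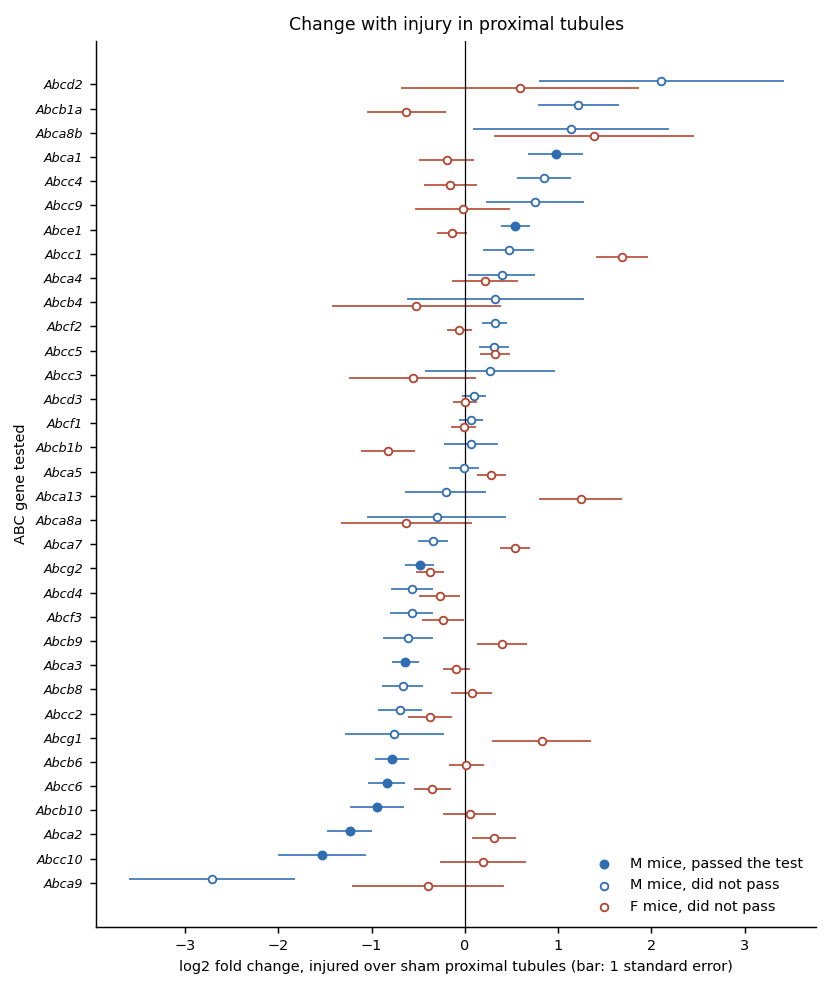
log2 fold change with injury (x axis, injured over sham, bars 1 standard error) of 34 tested members (rows) in male (blue) and female (red) tubules; filled points passed at an adjusted p below 0.05. The 9 filled points are all from males, and the highest female value is that of Abcc1, at 1.68.

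Whether the response differed between the sexes was tested as an interaction. No member passed by edgeR, with 0.855% of all genes called. An unadjusted p below 0.05 was found for 15 of 36 members, against 20.0% of all genes. Of these members 4 had a higher and 11 a lower response in males. DESeq2 called 2 higher (Abcb1a and Abce1) and 3 lower, among them Abca2 and Abca7, against 8.36% of all genes. The smallest adjusted p by edgeR was that of Abca2, at 0.059, whose response was -1.23 in males and 0.31 in females, a difference of -1.54 ± 0.34 (log2 ± SE). Abcb1a had a difference of 1.84 ± 0.60 (adjusted p = 0.14) and Abcc1 of -1.21 ± 0.39 (adjusted p = 0.14).

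Without sham male replicate 3 the interaction called 1 member, higher, against 1.16% of all genes. Without injured male replicate 3 it called 4 members higher and 13 lower, and 30.5% of all genes. Abcc10 (-2.79 ± 0.27), Abca2 (-1.94 ± 0.20), Abcb10 (-1.53 ± 0.18) and Abcb6 (-1.10 ± 0.13) were then lower in the male response, and Abcb1a (2.08 ± 0.58), Abca1 (1.39 ± 0.36) and Abce1 (0.83 ± 0.15) higher (log2 ± SE). In the fit with all samples none of these was called. Injured male replicate 3 was set apart partly by the members' own values, so the fit without it adds no separate support.

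CD31 isolates, males against females. In sham isolates 2 members were lower in males and none higher, of 37 tested (5.41%), with 0.432% of all 19910 genes called. They were the P-glycoprotein genes again. Abcb1b had 54.5 and 65.3 CPM in the 2 sham females and 13.4, 9.28 and 8.48 CPM in the 3 sham males (log2 fold change -2.53, SE 0.42, adjusted p = 0.03). Abcb1a had 31.9 and 44.7 CPM in sham females and 6.23, 6.64 and 8.91 CPM in sham males (log2 fold change -2.40, SE 0.42, adjusted p = 0.034). Both genes were without overlap, and their sum was 98.2 ± 16.8 CPM in sham females (SD, n = 2) and 17.6 ± 1.85 CPM in sham males (SD, n = 3).

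These calls were fragile. Leaving out each of the 5 sham isolates in turn, Abcb1b passed in none (adjusted p from 0.054 to 0.25) and Abcb1a only without sham male replicate 3 (adjusted p = 0.043). Leaving out a sham female leaves 1 sample there, taken to vary like the other groups. Without injured male replicate 2, 4 members were called lower, both of these with Abcc4 and Abcc6, against 1.10% of all genes. Abcc4 was at 73.2 and 114 CPM in sham females and 27.3, 24.0 and 41.3 CPM in sham males, without overlap, and did not pass (log2 fold change -1.60, SE 0.36, adjusted p = 0.12). DESeq2 called Abcc4 and Abcc6 in addition, at adjusted p of 0.0051 and 1.72e-04, with 1.95% of all genes called. In the authors' deposited table for sham isolates by sex 3 members are lower, and of the 2 called here Abcb1a does not pass (adjusted p = 0.062). Over all members 1 lay above and 10 below without overlap, against 23.7% of all genes.

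In injured isolates 2 members were lower in males and none higher, with 1.50% of all genes called (0.663% higher and 0.834% lower). Abcc6 had 13.5, 13.7 and 10.8 CPM in injured females and 2.92, 3.56 and 3.31 CPM in injured males, without overlap (log2 fold change -1.96, SE 0.22, adjusted p = 0.0019). Abcb1b had 58.3, 39.9 and 25.7 CPM in injured females and 10.3, 4.34 and 10.7 CPM in injured males (log2 fold change -2.29, SE 0.40, adjusted p = 0.018), also without overlap. Abcb1a overlapped, at 28.6, 21.4 and 10.1 against 8.49, 12.8 and 6.84 CPM (adjusted p = 0.21), and its female replicate 3 held the lowest female value. Abcc6 was called in all 6 fits that left out a library and Abcb1b in 3 of 6, lost without injured female replicate 1 or 2 or injured male replicate 1. Without injured male replicate 2, Abcc3 was called higher too, against 1.98% of all genes. In the authors' deposited table for injured isolates by sex 1 member is higher and 4 are lower, both called here among them. Without overlap, 4 members lay above and 8 below, against 24.0% of all genes.

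Because proximal tubule markers were abundant in the CD31 isolates, these values are not those of endothelial cells alone. Their sum was 14019 to 18337 CPM in sham female, 7653 to 13214 CPM in sham male, 10804 to 15278 CPM in injured female and 4948 to 5339.5 CPM in injured male isolates, and its part in the differences was not tested.

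Injury in CD31 isolates. No member was called in males (0.864% of all genes called) or in females (0% of all genes) by edgeR. At an unadjusted p below 0.05 there were 5 of 37 members in males, 3 higher and 2 lower, against 15.2% of all genes. In females there was 1, lower, against 2.39% of all genes. DESeq2 called 1 higher and 1 lower in males and none in females, against 6.11% and 0.166% of all genes. The basolateral conjugate pump Abcc3 had 1.37, 2.44 and 2.34 CPM in sham and 9.09, 2.89 and 8.88 CPM in injured males, without overlap but with replicate 2 near the sham values (log2 fold change 1.76, SE 0.45, adjusted p = 0.091). DESeq2 gave it an adjusted p of 0.0034, and the authors' deposited table a log2 fold change of 1.88 (adjusted p = 0.0083). In male tubules Abcc3 was at 3.66, 1.05 and 1.21 CPM in sham and 2.01, 3.02 and 2.11 CPM in injured samples, which overlapped.

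Abcc6 was at 6.59, 6.90 and 6.21 CPM in sham and 2.92, 3.56 and 3.31 CPM in injured male isolates, without overlap (log2 fold change -1.01, SE 0.22, adjusted p = 0.061), and DESeq2 called it at 3.20e-04. Abce1 held 87.1, 93.8 and 68.0 CPM in sham and 120.4, 115 and 99.8 CPM in injured males, with each injured male above each sham male (log2 fold change 0.43, SE 0.19, adjusted p = 0.31). Without overlap, 3 members lay above and 2 below in males, against 17.8% of all genes (8.81% above and 8.96% below), and 2 above and 6 below in females, against 24.7%. Without sham male replicate 3, 1 member was called lower, against 3.60% of all genes. Leaving out injured male replicate 2, in which neutrophil genes summed to 83.2 CPM against at most 9.57 CPM in the other injured male isolates, edgeR called 1 higher (Abcc3, 2.13 ± 0.31) and 1 lower (Abcc6, -1.08 ± 0.20) (log2 ± SE), against 1.75% of all genes.

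The interaction of injury and sex in the isolates called no member and 0% of all genes by edgeR. An unadjusted p below 0.05 was found for 6 of 37 members, against 6.5% of all genes. DESeq2 called none, against 0.311% of all genes. Nor did any member pass by edgeR for a difference in injury response between isolates and tubules, where again 0% of all genes were called. There 3 of 39 members had an unadjusted p below 0.05, against 4.77% of all genes, and DESeq2 called 0, against 0.113%.

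Sham CD31 isolates against sham tubules. The isolations differed in 10 members, 7 higher and 3 lower in the CD31 isolates, 10 of 39 tested (25.6%), where 12.3% of all 21206 genes were called (10.4% higher and 1.86% lower). Among the lower members, Abca8a passed the filter through the tubules alone and is described without its test. The share of 25.6% and every count of lower members in this comparison include it, so they rest partly on that filter. Tubule and CD31 samples carry the same sample numbers in their titles, and the labels do not say whether 1 mouse gave both, so this fit takes them as separate. With the number as a block 6 were higher and 1 lower, against 8.45% of all genes, and Abcc5, Abcd4 and Abcc6 were no longer called. The fit held all 23 samples, and levels are given on its common scale. Abcg1, which exports cholesterol to high-density lipoprotein, was at 13.6 and 10.2 CPM in female and 5.21, 4.45 and 12.3 CPM in male isolates, and at 0.514, 3.03 and 3.58 CPM in female and 2.82, 2.42 and 2.89 CPM in male tubules. All isolates were above all tubules, a 3.67-fold difference (log2 fold change 1.87, SE 0.36, adjusted p = 0.0015).

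Abcc1 was at 40.9 and 30.7 CPM in female and 17.4, 19.0 and 44.3 CPM in male isolates, against 6.36, 7.47 and 5.77 CPM in female and 17.2, 11.0 and 7.55 CPM in male tubules (log2 fold change 1.82, SE 0.24, adjusted p = 1.02e-04). Its lowest isolate and highest tubule sample, 17.4 and 17.2 CPM, nearly met. Abcc5, a cyclic nucleotide exporter, was only 1.39-fold higher, yet all isolates were above all tubules (log2 fold change 0.48, SE 0.13, adjusted p = 0.017). The groups of the other higher members overlapped: Abca13 (log2 fold change 1.82, SE 0.43, adjusted p = 0.0083), Abca9 (log2 fold change 2.01, SE 0.55, adjusted p = 0.019), Abca7 (log2 fold change 0.87, SE 0.20, adjusted p = 0.0057) and the retinoid flippase Abca4 (log2 fold change 1.06, SE 0.33, adjusted p = 0.041).

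For Abca13 the isolates held 152 and 129.8 CPM in females and 43.5, 71.4 and 162 CPM in males, with the highest value in male replicate 3. That sample also had the highest endothelial (1672 CPM) and thick ascending limb and distal (15735 CPM) marker sums of the sham males, whose other samples had at most 449 and 8071 CPM. Abcg1, Abcc1, Abca4, Abca7 and Abca9 were highest in male replicate 3 among the male isolates too, and the part of these cell types was not tested. Without that sample 4 members were called higher and 1 lower, against 8.11% of all genes. Leaving out sham female isolate 1 also gave 4 and 1, against 6.02%, and sham female isolate 2 gave 4 and 2, against 9.70%.

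Of the 3 lower members Abca8a had 0 reads in all 5 sham isolates and 116 reads in the 6 sham tubule samples, at 0.385, 0.968 and 1.14 CPM in females and 0.161, 0.151 and 0.342 CPM in males. With 3 reads over the 5 isolates as the limit that 0 allows (0.0131 CPM), it was at least 40.1-fold lower there. It lies between its close relatives Abca8b and Abca9 on chromosome 11, and reads can be split among them. Abcd4 (log2 fold change -0.65, SE 0.19, adjusted p = 0.027) and Abcc6 (log2 fold change -0.48, SE 0.14, adjusted p = 0.033) were the others, with overlapping groups. Across the members 3 lay above and 1 below without overlap, the latter being Abca8a, against 7.53% of all genes.

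Pumps of the tubule's apical side did not pass this test: Abcg2 had a log2 difference of -0.30 ± 0.21 (SE; adjusted p = 0.43) and Abcc2 of -0.57 ± 0.30 (adjusted p = 0.26). Nor did the highly expressed phospholipid transporter Abca3, at -0.23 ± 0.16 (adjusted p = 0.44).

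**Figure D5:**
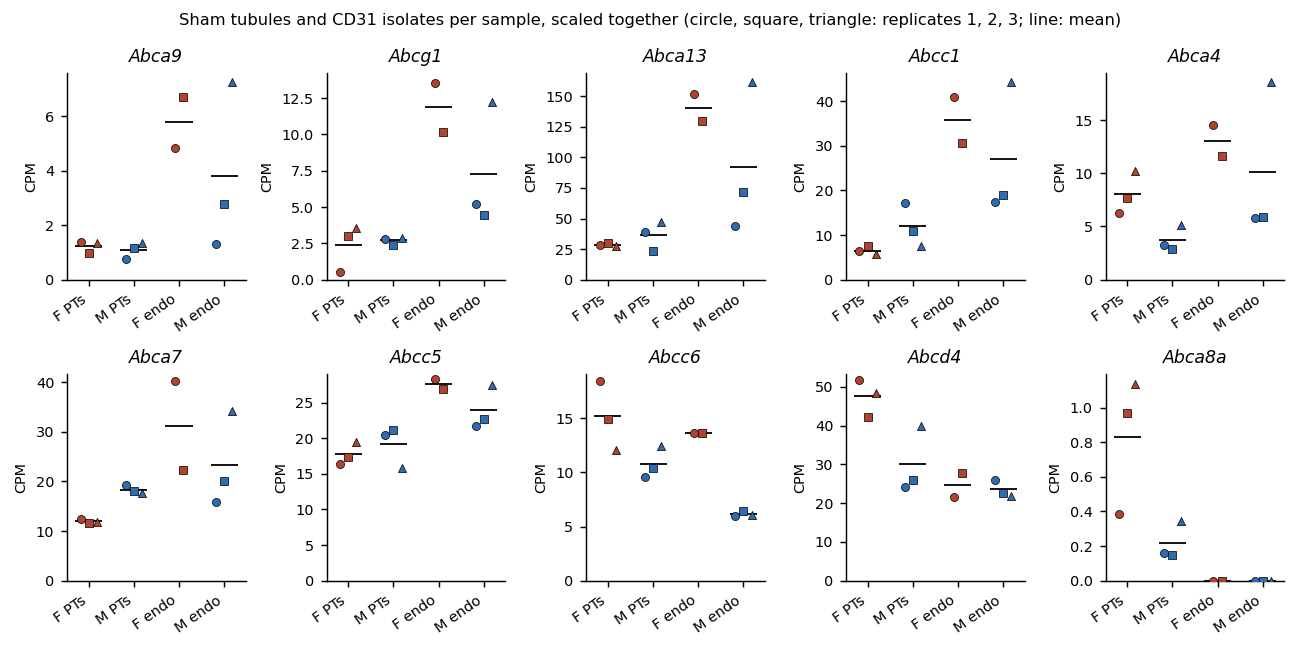
Level in CPM (y axes, from 0; tubules and isolates scaled together) of the 10 members called between sham CD31 isolates and sham tubules, in each sham sample, females red and males blue, black line at the mean. Abcg1, Abcc1 and Abcc5 are higher in every isolate than in every tubule sample, and Abca8a is at 0 in all 5 isolates.

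Other named members. Abcb11, the bile salt export pump of the liver, had at most 0.0778 CPM in any sample. The sulfonylurea receptors, which are regulatory subunits of potassium channels, differed: Abcc8 was low (at most 0.435 CPM), while Abcc9 reached 2.63, 2.65 and 2.94 CPM in sham female and 0.381, 1.17 and 1.24 CPM in sham male tubules, without overlap and not past the test (adjusted p = 0.12). The phosphatidylcholine flippase Abcb4, next to Abcb1b on chromosome 5, had at most 0.592 CPM. Abcg5 and Abcg8, partners in sterol secretion, had at most 0.371 and 0.204 CPM, and since they overlap on opposite strands and the strand setting is not given in the sources used here, their reads cannot be told apart with certainty.

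Partner and regulator genes. Lists of genes that work with ABC transporters were chosen with earlier results of these data known and are given as counts, with values for some of the called genes. Of 12 sterol regulators and partners, 2 rose with injury in male tubules and none fell (19.0% of all genes were called): Apoe, the lipoprotein that accepts exported cholesterol (log2 fold change 0.86, SE 0.18, adjusted p = 0.01), and the lipoprotein receptor Scarb1 (log2 fold change 1.35, SE 0.31, adjusted p = 0.016). In sham tubules 1 of the 12 was higher and 1 lower in males than in females, where 5.80% of all genes were called. In injured tubules 1 was higher and 2 lower in males, where 23.3% of all genes were called. Apoe was lower in males than in females in sham (log2 fold change -1.91, SE 0.18, adjusted p = 1.44e-04) and in injured tubules (log2 fold change -1.38, SE 0.18, adjusted p = 8.23e-04). The lysosomal cholesterol transporter Npc1 was higher in males in both (1.12 and 1.71).

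Of 10 efflux regulators and apical scaffolds, 2 rose and 2 fell with injury in male tubules, where 10.6% of all genes were called higher and 8.43% lower. The oxidative stress factor Nfe2l2 (log2 fold change 1.95, SE 0.41, adjusted p = 0.011) and the membrane linker Ezr (log2 fold change 1.55, SE 0.39, adjusted p = 0.021) rose, and the apical scaffold Pdzk1 (log2 fold change -1.10, SE 0.29, adjusted p = 0.025) and the linker Rdx (log2 fold change -0.43, SE 0.13, adjusted p = 0.035) fell. Of the 10, none was higher and 2 were lower in sham males than in sham females, where 5.80% of all genes were called. In injured males 2 were higher and 3 lower than in injured females, where 23.3% of all genes were called. The xenobiotic receptors Nr1i2 (log2 fold change -2.90, SE 0.52, adjusted p = 0.0071) and Ahr (log2 fold change -0.85, SE 0.21, adjusted p = 0.033) were lower in sham males than in sham females, and so were both in injured males (-1.84 and -0.67). In injured males against injured females Nfe2l2 (1.59) and Ezr (1.88) were higher and Pdzk1 (-1.28) lower.

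Of the 2 potassium channel pore genes that pair with Abcc8 and Abcc9, Kcnj8 rose in injured male tubules, from a mean of 0.138 to 2.13 CPM (log2 fold change 3.91, SE 1.20, adjusted p = 0.043). With the same background, of 6 peroxisomal partners 1 fell with injury in male tubules, the import factor Pex19 (log2 fold change -0.41, SE 0.13, adjusted p = 0.046). The 3 ABC proteins with other symbols are the chloride channel Cftr and the antigen peptide transporter subunits Tap1 and Tap2. Tap1 (log2 fold change 1.87, SE 0.47, adjusted p = 0.04) and Tap2 (log2 fold change 0.80, SE 0.13, adjusted p = 0.0036) were higher in sham males. These were 2 of the 3, with none lower, where 5.80% of all genes were called. Tap1 remained higher in injured males (1.81), as 1 of the 3, where 23.3% of all genes were called. Between sham isolates and sham tubules, 12.3% of all genes were called. There 1 of 12 sterol genes and 1 of the 3 other ABC proteins were higher, and 2 of 10 efflux regulators and scaffolds lower. Scarb1 (1.68) and Tap2 (0.48) were higher and the scaffold Slc9a3r1 (-0.44) lower in the isolates (log2). None of the genes in these lists was called in female injury or in any comparison within the CD31 isolates.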

How the data were processed

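RNA from microdissected proximal tubules and CD31 isolates of FVB mice was sequenced after polyA selection, per the labels' protocols. Per the submitters' processing notes the authors used Salmon 0.13.1, DESeq2 and GRCm38. The deposited files give estimated counts (NumReads), TPM and effective lengths per transcript, and the authors' deposited tables give log2 fold changes and p-values adjusted by the authors. The strand setting, the transcript release and the settings behind the authors' deposited tables are not given in the sources used here.

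Here estimated counts were summed per gene over 136202 transcripts, rounded, and tested with edgeR 4.0.16 (R 4.3.3; TMM scaling, filterByExpr with a minimum count of 10 and a minimum total of 15, quasi-likelihood test, Benjamini-Hochberg adjustment over all genes, threshold 0.05). The tubule fit held 12 samples (18369 genes), the CD31 fit 11 (19910) and the joint fit 23 (21206). CPM were scaled within each fit. The edgeR test of injury in male tubules was also run on simulated counts. The members and lists were chosen with earlier results of these data known. Named were all called members (at most 15 a comparison), the 10 with the highest TPM in each isolation, and members of fixed roles. Alternatives were another scaling, no filter, DESeq2 1.42.0, length offsets, a replicate block, only the groups compared, either technical library alone, and each sample left out. Promoters came from RefSeq, which lists 38 members. The labels give 3 male and 3 female mice a group but do not tie a sample to a mouse, and p-values measure the spread between these samples. Replicate numbers repeat between groups and title numbers between the isolations, and the main tests used no pairing. Single values of some members and listed genes are not reported here, though the counts include them.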

Additional observations from a re-analysis of the deposited data

How the results depend on the processing

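The 40 called differences of single members include Abca8a between the isolations. Of these 40, 37 stayed called with size factors in place of TMM scaling, 35 without the low-count filter and 40 with DESeq2. With the replicate block 31 stayed called, and with length offsets 20. With only the compared groups fitted, 11 of 30 stayed, and with technical library 3 or 3B alone 32 and 36 of 36. With length offsets Abcb1a in sham tubules, males against females, turned to 0.24, where 1 short transcript set the length in sham male replicate 1. In what follows, a percentage in brackets is the share of all genes called in the same fit or fits. Members called for injury in male tubules numbered 3 with length offsets (11.5%) and 0 with only these groups (0.913%), which leaves fewer samples. For injury in female tubules they were 1 without the filter (0.476%), 2 with DESeq2 (3.80%), 5 with only these groups (6.90%) and 1 with 3B alone (0.0436%). In sham tubules, males against females, they were 11 with DESeq2 (11.2%), 2 with length offsets (4.48%) and 7 with only these groups (10.2%). In injured tubules they were 7 with length offsets (16.1%) and 6 with only these groups (9.97%). The interaction in tubules gave 1 without the filter (1.20%) and 5 with DESeq2 (8.36%). For CD31 isolates, injury in males gave 1 without the filter (2.53%) and 2 with DESeq2 (6.11%). Sham males against females gave 4 with DESeq2 (1.95%) and 1 with length offsets (0.347%). Injured males against females gave 4 with DESeq2 (5.91%) and 1 with only these groups (0.746%). Sham isolates against tubules gave 5 with length offsets (9.28%). Unless stated, the cause was not tested. Leaving out 1 sample at a time, called members ranged from 1 to 19 for injury in male tubules (4.97% to 42.5%). They were 0 to 3 in female tubules (0% to 2.59%). They ranged from 2 to 11 in sham tubules by sex, Abcg3 among the 11 (2.84% to 13.6%), and 6 to 20 in injured tubules by sex (9.82% to 44.1%). The interaction in tubules gave 0 to 17 (0.0983% to 30.5%). The ranges below are over fits that kept 2 sham female isolates. In CD31 isolates members called for injury ranged from 0 to 2 in males (0% to 3.60%) and 0 to 0 in females (0%). They were 0 to 4 in sham by sex (0.176% to 1.12%) and 1 to 3 in injured by sex (0.389% to 1.98%). The interaction gave 0 to 0 (0% to 0.00513%). They ranged from 5 to 10 between the isolations (8.11% to 14.7%) and from 0 to 0 for the difference in response (0% to 0.00476%). With the replicate block 10 members were called for injury in male tubules (17.8%), 3 in sham (4.88%) and 11 in injured tubules by sex (22.0%). It gave 0 in sham (0.291%) and 2 in injured CD31 isolates by sex (0.668%). Between the isolations, where the title number was the block, 7 were called (8.45%). Samples with the same replicate number deviated together (correlation over 0.1) in 7 of 18 pairs of tubule groups and 4 of 15 pairs of CD31 groups. For unlike replicate numbers these were 8 of 36 and 17 of 30. Tubule and CD31 samples with the same title number did so in 6 of 11 pairs (median 0.13, from -0.82 to 0.88). Those of the same sex and treatment with unlike title numbers did so in 7 of 22 pairs (median -0.12). These values do not settle whether title numbers mark pairs, and the main tests took none. Whether 1 mouse gave both samples of a number is not stated in the labels. Members with under 1 CPM are beyond the reach of these depths for any but very large differences.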
